A study of Drosophila melanogaster with 6 samples.

Results

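The 41 genes described here encode the machinery that copies nuclear DNA, from the proteins that mark origins to the enzymes that join new strands, together with the E2F and Rb regulators that control transcription of many of them. They were chosen by name: 43 gene symbols were listed, and the 41 whose spelling equalled a gene name in the deposited table of 8470 genes were kept. The symbols lat and RpA-70 were absent because the table names these genes Orc3 and RPA1, whose values are given beside the members but are not counted with them. No measured value entered the rule, although the list was chosen with earlier results of these data known. All 41 passed the filter on low counts.

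DNA is copied once per cell cycle. Origins are bound by the origin recognition complex (ORC) and, with Cdc6 and Cdt1 (dup in flies), load the ring-shaped MCM helicase in G1. Kinases then turn this ring, with Cdc45 and the GINS complex, into the active helicase of S phase, and polymerases follow it, held on DNA by the PCNA clamp. In the adult fly midgut, intestinal stem cells (ISCs) replicate before division, whereas their enteroblast and enterocyte progeny replicate without dividing and become polyploid, so both kinds of cycle use these genes.

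RNA was sequenced from YFP-positive cells that were sorted by flow cytometry from dissociated midguts of female flies. The NF-YA RNAi group (3 libraries, numbered 2, 4 and 5 by library name) expressed a hairpin against NF-YA (VDRC 106132) and the control group (3 libraries, numbered 1, 2 and 3) was Oregon R without a hairpin. Both groups carried Esg-Gal4-ts, UAS-2x YFP and Su(H)-GBE-Gal80, a driver that is active in esg-expressing progenitors, is blocked in enteroblasts by Gal80 and is held off by temperature-sensitive Gal80 until the shift. Per the labels, flies spent 3 days at 18 °C and 3 days at 29 °C, and then 3 further days on holidic food, a chemically defined diet. The study itself states that RNA was taken after 3 days of RNAi induction, and its methods describe 3 days on holidic food at 29 °C. The labels and the study thus differ on whether the holidic food came after the 3 days at 29 °C or during them. NF-YA is the DNA-binding subunit of NF-Y, a CCAAT-binding transcription factor. The comparison asks how the transcripts of these genes differ when NF-YA is depleted in ISCs. One hairpin line was used, and the hairpin insertion and the genetic background differ together between the groups and cannot be told apart.

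The libraries held 77092609 to 118463169 estimated fragments in NF-YA RNAi and 98240298 to 122269943 in control. Nf-YA itself had 377, 518 and 456 in the NF-YA RNAi libraries, against 1690.0, 2054 and 2482 in the control libraries (normalised read counts), a mean of 21.7% of the control mean (log2 fold change -2.21 ± 0.20, SE, edgeR adjusted p = 0.000203). The sorted pools also carried transcripts of other gut cells, and these differed between the groups. Of 15 enterocyte markers, chiefly digestive enzymes, 14 were lower in NF-YA RNAi and 8 were called lower by edgeR, with a median log2 fold change of -2.12. Their summed level was 351 to 1539 CPM (estimated counts scaled to library size) in NF-YA RNAi and 2054 to 5699 CPM in control. Each of 11 enteroendocrine markers lay below control, 6 of them called, with sums of 524 to 1215 CPM in NF-YA RNAi and 1852 to 2372 CPM in control. The progenitor gene esg, whose Gal4 driver marks the sorted cells, was abundant in every library, with 20750.3, 18171 and 18541 in the NF-YA RNAi libraries, against 29913, 32289 and 25789.7 in the control libraries (normalised read counts), and Dl and hdc were not analysed here. Of 10 progenitor markers, 8 lay below control and 2 above. By edgeR 3 were called lower (esg, mira and Egfr), with 5 lower and 1 higher (sna) at an unadjusted p under 0.05. DESeq2 called 4 lower. The sums over the 10 markers were 1723 to 1856 CPM in NF-YA RNAi and 2103 to 2623 CPM in control. All 10 visceral muscle markers lay below control with 1 called by edgeR and 3 by DESeq2. Of 5 tested ovary germ line markers 0 were called by edgeR (1 lower at an unadjusted p under 0.05) and 0 by DESeq2. Of 3 tested Malpighian tubule markers 0 were called by edgeR (0 at an unadjusted p under 0.05), while DESeq2 called Vha100-4 lower. Among 3 tested hemocyte markers edgeR called 1 higher and 1 lower. The oocyte genes osk and bcd were at 0 in every library, so their RNA was not detectable at this depth. In such bulk pools fewer cells of a type and less RNA per cell cannot be told apart.

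The replication genes as a group stood higher in NF-YA RNAi. Of the 41 members, 40 had a log2 fold change above 0, and the primase subunit Prim1 was the exception. E2f1 was counted above 0 at 0.003, and fell below 0 in some fits with other settings. In edgeR's quasi-likelihood fit, where p-values were adjusted by the Benjamini-Hochberg method over all 9080 genes tested and called under 0.05, 14 members (34.1%) were called higher, against 6.19% of all genes. No member was called lower, where 8.02% of all genes were, and by the same test 28 members were higher and none lower at an unadjusted p under 0.05. The members' median log2 fold change was 0.46 against -0.02 over all genes. In 30 members (73.2%) every NF-YA RNAi library lay above every control library in CPM, against 16.5% of all genes, and in the other 11 the groups overlapped. DESeq2 called 17 members higher, against 9.05% of all genes, and none lower. These shares are descriptions of a named list, and no test was made over its members.

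**Figure D1:**
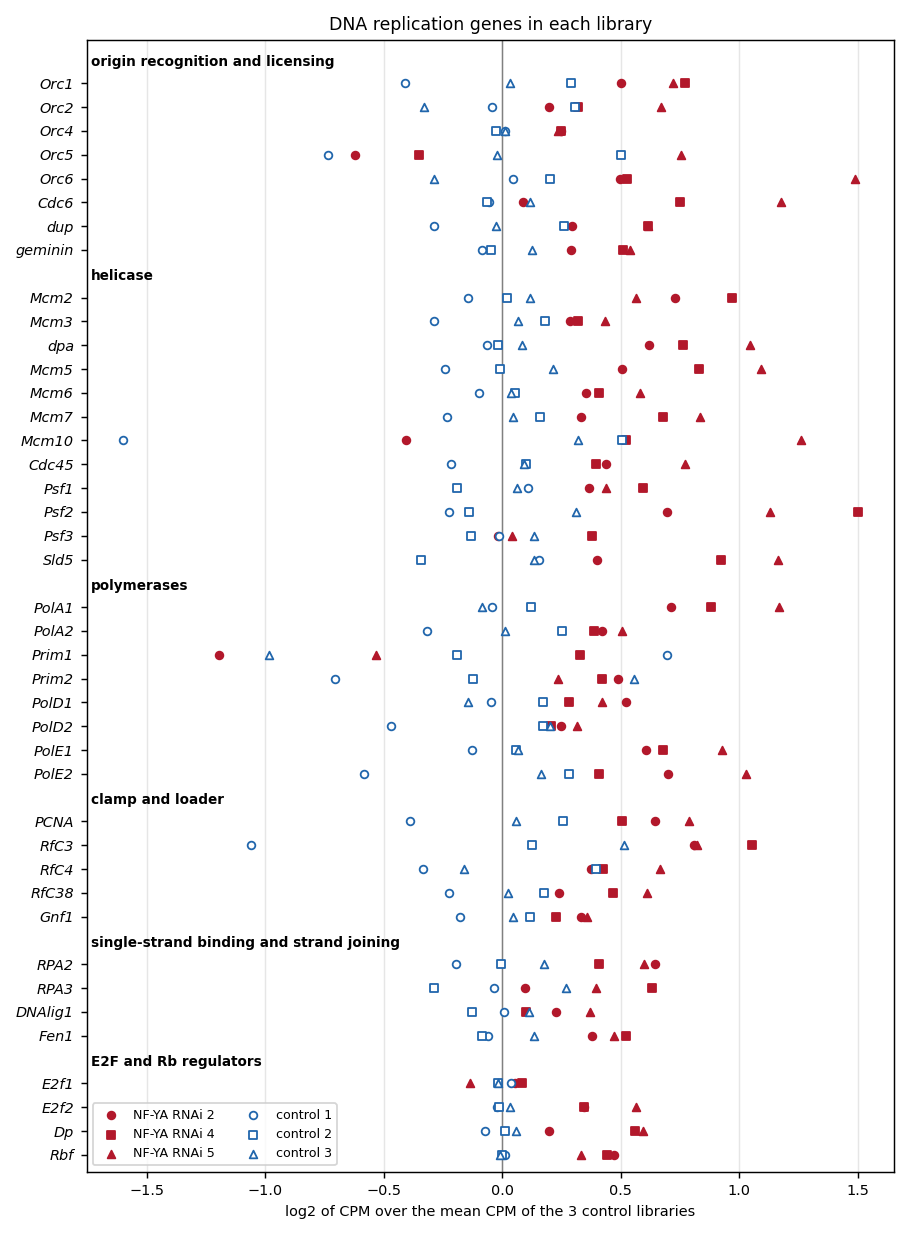
Level of each of the 41 replication genes in each library, as log2 of its CPM over the mean CPM of the 3 control libraries (x axis), grouped by replication step, with filled red symbols for NF-YA RNAi libraries 2, 4 and 5 and open blue symbols for control libraries 1, 2 and 3. In 30 genes all red symbols lie to the right of all blue ones, and Mcm10, RfC3 and Prim1, which have few counts, show the widest spread over all libraries.

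The helicase and its activators held the greatest number of calls. Of 12 genes, 7 were called higher and 10 had groups that did not overlap, and the median log2 fold change was 0.62. For this and each later step, the shares over all genes were 6.19% called higher and 16.5% with groups apart and higher. A single call in a step of few genes is not read as a difference from these shares. Beside the MCM ring, which unwinds DNA ahead of the fork, this step includes Cdc45 and the 4 GINS subunits, which activate the ring, and Mcm10, which acts with them at the start of synthesis. Figures for single genes below are normalised read counts in the order of library numbers 2, 4 and 5 for NF-YA RNAi and 1, 2 and 3 for control, each adjusted p comes from edgeR's test over all genes, and values after ± for log2 fold changes are SE.

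The ring subunit Mcm4, named dpa in flies (FBgn0015929, 2R:7496702-7500145, minus strand, BDGP6.54), had 5212, 5744 and 7049 in NF-YA RNAi libraries 2, 4 and 5, against 3244, 3319 and 3586 in control libraries 1, 2 and 3. Every NF-YA RNAi library was above every control library, with library 5 highest, and the log2 fold change was 0.82 ± 0.13 (edgeR adjusted p = 0.00411), the smallest p among the members. For Mcm2 (FBgn0014861, 3R:8264970-8267924, plus strand), counts were 3929, 4646 and 3531 in the NF-YA RNAi libraries, against 2147, 2382 and 2567 in the control libraries. Here library 4 was the highest, the groups did not overlap, and the log2 fold change was 0.77 ± 0.14 (edgeR adjusted p = 0.00714). Both calls held in each of the 6 fits that left out 1 library.

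Mcm5 had the lowest level of the ring per length, and its counts were 2082, 2609 and 3146 in the NF-YA RNAi libraries, against 1246, 1447 and 1702 in the control libraries. The groups did not overlap and the log2 fold change was 0.83 ± 0.18 (edgeR adjusted p = 0.0171). Mcm7 had 2784, 3535 and 3963 in the NF-YA RNAi libraries, against 1882, 2450.0 and 2282 in the control libraries, again without overlap (log2 fold change 0.63 ± 0.16, edgeR adjusted p = 0.0302). An antisense RNA covers 2003 exonic bases of Mcm7 on the other strand, and the strand setting of the counting is not given in the sources used here, so reads of the pair may not be separated. In all, 20 members share exonic bases with another gene on the other strand, 3 of them called (Mcm7, PolA1 and Dp), and in PolA1 and Dp the overlap is 115 and 27 bases. For Mcm6, counts were 7208, 7479 and 8494 in the NF-YA RNAi libraries, against 5284, 5809 and 5784 in the control libraries, with a smaller log2 fold change of 0.45 ± 0.10 (edgeR adjusted p = 0.0208). The calls of Mcm5, Mcm6 and Mcm7 were each lost in 4 of the 6 fits that left out 1 library, among them the fits without NF-YA RNAi library 4, NF-YA RNAi library 5 or control library 1.

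Mcm3 completes the ring and was not called. It had 4233, 4334 and 4720.3 in the NF-YA RNAi libraries, against 2851, 3906 and 3632 in the control libraries, so that its groups did not overlap either, but control libraries 2 and 3 came close to the NF-YA RNAi range. Its log2 fold change was 0.35 ± 0.14, with a 95% interval of 0.05 to 0.65 (edgeR adjusted p = 0.119). That interval contains the estimates for Mcm6 and Mcm7 and not those for dpa, Mcm2 or Mcm5. Whether the subunits differed in their response was not tested.

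Among the activators, Cdc45 had 2957, 2866 and 3744 in the NF-YA RNAi libraries, against 1882, 2319 and 2323 in the control libraries (log2 fold change 0.54 ± 0.15, edgeR adjusted p = 0.0372). Its groups were apart, with library 5 well above the others, but the call was lost whichever library was left out. The GINS subunit Sld5 had 762, 1088 and 1303 in the NF-YA RNAi libraries, against 643, 447 and 629 in the control libraries (log2 fold change 0.86 ± 0.24, edgeR adjusted p = 0.0394), and this call held only without NF-YA RNAi library 2. Psf2, another GINS subunit, showed the highest fold change of all members, 1.14 ± 0.41, without being called (edgeR adjusted p = 0.0991). Its counts were few, 188, 328 and 257 in the NF-YA RNAi libraries, against 103, 107 and 146 in the control libraries, and the groups did not overlap. Psf1 had 1373, 1598 and 1453 in the NF-YA RNAi libraries, against 1151, 915 and 1106 in the control libraries (log2 fold change 0.47 ± 0.15, edgeR adjusted p = 0.0684), also without overlap. Psf3 had the lowest fold change of the step at 0.14 ± 0.16 (edgeR adjusted p = 0.617), its groups overlapped, and 831 of its exonic bases are shared with a gene on the other strand. Mcm10 was too low for a statement, with 72.1, 137 and 230.0 in the NF-YA RNAi libraries, against 31.6, 135 and 119 in the control libraries and a 95% interval of -0.95 to 2.17.

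**Figure D2:**
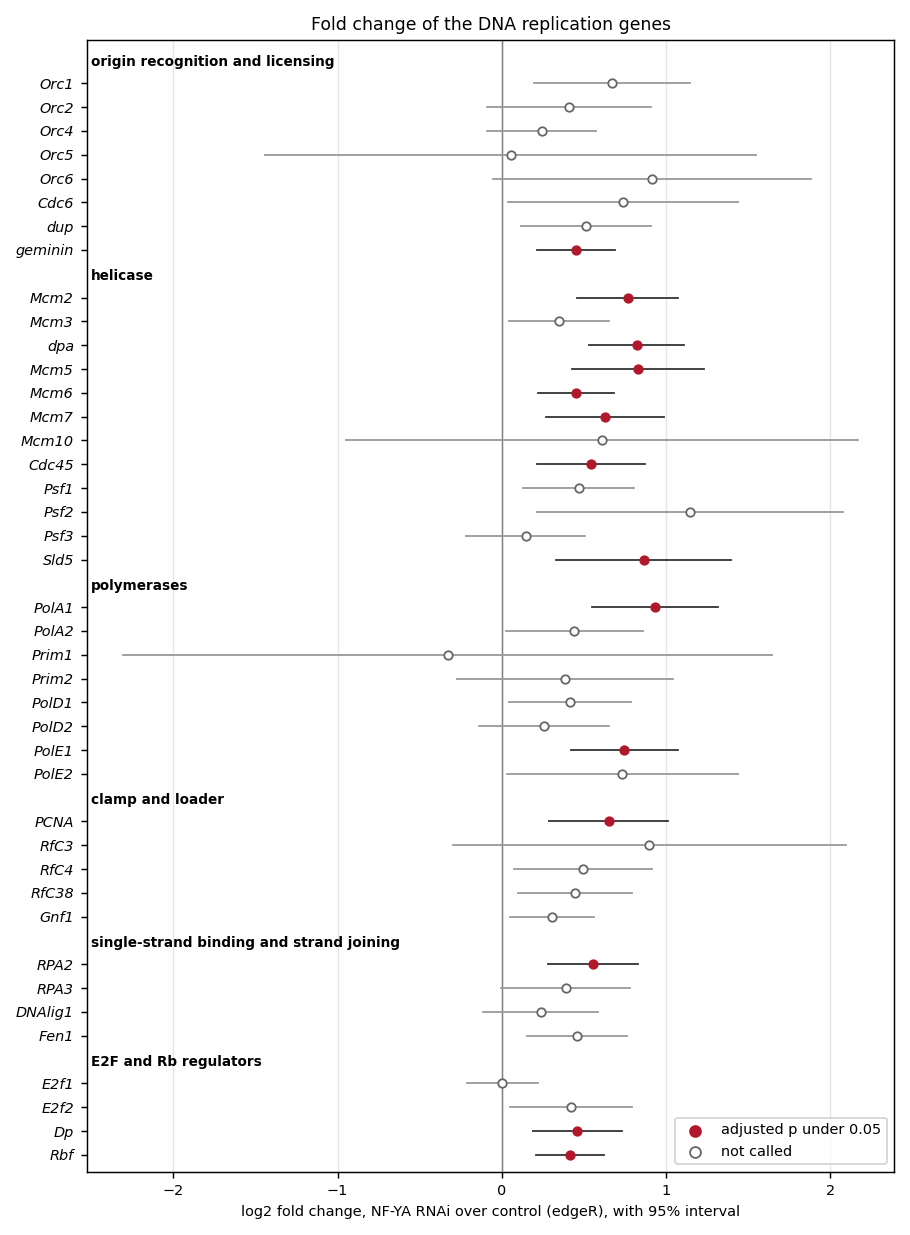
Log2 fold change of each replication gene in NF-YA RNAi over control (edgeR, x axis) with its 95% interval, grouped by step, with filled red points for the 14 genes at an adjusted p under 0.05. Points for 40 of 41 genes lie above 0, the called genes range from 0.42 for Rbf to 0.93 for PolA1, and Psf2 at 1.14 has a wide interval and is not called.

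Origin recognition and licensing showed 1 call in 8 genes (12.5%, against 6.19% of all genes) and a median log2 fold change of 0.48. In 5 genes the groups did not overlap (62.5%, against 16.5% of all genes). The called gene, geminin (FBgn0033081), encodes the inhibitor that binds Cdt1 and blocks relicensing of origins that have fired. It had 13571, 15722 and 16247 in the NF-YA RNAi libraries, against 10456, 10577 and 12062 in the control libraries, with the groups apart and control library 3 the nearest to them, and a log2 fold change of 0.45 ± 0.11 (edgeR adjusted p = 0.0234). The call was lost in 4 of the 6 fits that left out 1 library, those without NF-YA RNAi library 4 or 5 or control library 1 or 2. Its target dup, the loading factor Cdt1, had 1418, 1773 and 1781 in the NF-YA RNAi libraries, against 949.9, 1371 and 1136 in the control libraries. NF-YA RNAi library 2 exceeded the highest control library by little, and the change of 0.51 ± 0.18 missed the threshold (edgeR adjusted p = 0.0836). The ratio of geminin to dup in TPM was 31.3 to 33.8 in NF-YA RNAi and 27.25 to 38.9 in control, so the inhibitor and its target kept proportions that overlapped between the groups.

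The ORC subunits and Cdc6 missed the threshold. The highest fold change in this step was that of Orc6, with 193, 196 and 385 in the NF-YA RNAi libraries, against 141, 154 and 111 in the control libraries (log2 fold change 0.91 ± 0.43, edgeR adjusted p = 0.197). Library 5 alone stood at the top, and the other NF-YA RNAi libraries were nearer to control. Orc1, the subunit whose level is regulated through the cycle in flies, had 855, 1029 and 1000.1 in the NF-YA RNAi libraries, against 455, 733 and 617 in the control libraries (log2 fold change 0.67 ± 0.21, edgeR adjusted p = 0.0656; DESeq2 adjusted p = 0.0412), without overlap. Cdc6, the ATPase that helps ORC load the ring, had 313, 495 and 669 in the NF-YA RNAi libraries, against 283, 279 and 319 in the control libraries, and NF-YA RNAi library 2 fell inside the control range (log2 fold change 0.74 ± 0.31, edgeR adjusted p = 0.15). Orc4 had 984, 984 and 984 in the NF-YA RNAi libraries, against 838, 807 and 835 in the control libraries, with the NF-YA RNAi libraries equal to the whole count, and a log2 fold change of 0.24 ± 0.15 (edgeR adjusted p = 0.319). Orc2 overlapped (0.41 ± 0.22), as did Orc5, which had the lowest fold change of the step (0.054 ± 0.67) and at most 155 normalised read counts in any library. Orc3, listed under its older symbol lat, had a log2 fold change of 0.15 ± 0.35 (edgeR adjusted p = 0.832), and shares 3315 exonic bases with a gene on the same strand, so its reads could be split between them.

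Of the 8 polymerase genes, 2 were called, both catalytic subunits, 6 had groups that did not overlap, and the median log2 fold change was 0.43. Polymerase alpha with its primase starts each strand, polymerase epsilon extends the leading strand and polymerase delta the lagging strand. The catalytic subunit of polymerase alpha, PolA1 (FBgn0259113, 3R:21666562-21671750, minus strand, BDGP6.54), had 1176, 1324 and 1621 in the NF-YA RNAi libraries, against 698, 777 and 676 in the control libraries, the highest fold change of any called member at 0.93 ± 0.17 (edgeR adjusted p = 0.00828). The control libraries were tightly grouped and the lowest NF-YA RNAi library was far above them. PolE1, the catalytic subunit of polymerase epsilon (FBgn0264326, 3R:23348128-23355163, plus strand), had 1697, 1783 and 2131 in the NF-YA RNAi libraries, against 1019, 1149.8 and 1165 in the control libraries (log2 fold change 0.74 ± 0.14, edgeR adjusted p = 0.0108). Both calls held in all 6 fits that left out 1 library.

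The remaining polymerase genes lay lower or varied more. PolD1, the catalytic subunit of polymerase delta, had 1123, 949.7 and 1052 in the NF-YA RNAi libraries, against 758, 874 and 706 in the control libraries, without overlap but with a log2 fold change of 0.41 ± 0.17 that missed the threshold (edgeR adjusted p = 0.132). Accessory subunits PolA2 (0.44 ± 0.19), PolE2 (0.73 ± 0.32) and PolD2 (0.26 ± 0.18) were likewise apart but not called, and in each of them control library 1 was the lowest library. For PolD2 the margin was small, with 2509 in NF-YA RNAi library 4 against 2501 in control library 3. The primase genes overlapped between groups. Prim2, the large primase subunit, had a log2 fold change of 0.39 ± 0.29 and its highest value in control library 3. Prim1, the catalytic primase subunit, was the single member below 0 in the 6-library fit. Prim1 had 25.3, 72.4 and 40.2 in the NF-YA RNAi libraries, against 93.7, 50.2 and 29.1 in the control libraries. With at most 92 estimated counts per library its change of -0.33 ± 0.88 carried a 95% interval of -2.31 to 1.64 (edgeR adjusted p = 0.853), so a difference in either direction was not detectable at this depth.

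PCNA, the sliding clamp that tethers polymerases to DNA and a widely used S phase marker, was the 1 gene called higher among the 5 of the clamp and its loader, of which 4 had groups that did not overlap, with a median log2 fold change of 0.49. Its counts were 7003, 6296 and 7822 in the NF-YA RNAi libraries, against 3429.6, 5285 and 4661 in the control libraries. Control library 1 was the lowest by far, control library 2 came nearest to the NF-YA RNAi range, and the log2 fold change was 0.65 ± 0.16 (edgeR adjusted p = 0.0277). The call was lost in 4 of the 6 fits that left out 1 library, including the fit without control library 1. The subunits of the clamp loader RFC, which opens PCNA and places it on DNA, were not called. RfC3 had the highest fold change of this step, 0.90 ± 0.53, from 172, 202 and 174 in the NF-YA RNAi libraries, against 46.9, 106 and 139 in the control libraries, with control library 1 far below the other control libraries. RfC4 (0.49 ± 0.19; edgeR adjusted p = 0.115; DESeq2 adjusted p = 0.0491) overlapped through control library 2, which reached the level of NF-YA RNAi library 2. RfC38 (0.45 ± 0.15; edgeR adjusted p = 0.087) and the large subunit Gnf1 (0.31 ± 0.11; edgeR adjusted p = 0.105) did not overlap, and Gnf1 was the lowest of the step.

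Single-stranded DNA behind the helicase is coated by the RPA complex, and new fragments are trimmed by a nuclease and joined by a ligase. Of these 4 genes 1 was called and 2 had groups that did not overlap, with a median log2 fold change of 0.42. RPA2 had 7709, 6536 and 7568 in the NF-YA RNAi libraries, against 4305, 4851 and 5546 in the control libraries and was called higher (0.55 ± 0.12, edgeR adjusted p = 0.0179), with groups that did not overlap, but the call was lost without NF-YA RNAi library 5, control library 1 or control library 2. RPA3, the small subunit, had 3101, 4474 and 3829 in the NF-YA RNAi libraries, against 2843, 2320.1 and 3418 in the control libraries, where NF-YA RNAi library 2 fell below control library 3 (log2 fold change 0.39 ± 0.17, edgeR adjusted p = 0.173). The large subunit RPA1, listed under the symbol RpA-70, had a log2 fold change of 0.30 ± 0.18 (edgeR adjusted p = 0.305) and overlapped. Of the enzymes that finish lagging strand fragments, the flap nuclease Fen1 had 1567, 1726 and 1678 in the NF-YA RNAi libraries, against 1157, 1121 and 1318 in the control libraries, without overlap, and missed the edgeR threshold narrowly (0.46 ± 0.14, edgeR adjusted p = 0.0515; DESeq2 adjusted p = 0.044). The ligase DNAlig1 had the lowest change of this step, 0.23 ± 0.16, and NF-YA RNAi library 4 lay below control library 3.

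Of the 4 E2F and Rb regulators 2 were called, 3 had groups that did not overlap, and the median log2 fold change was 0.42. In flies E2f1 activates S phase genes, E2f2 represses them, Dp is the partner both need to bind DNA, and Rbf is the retinoblastoma protein that holds E2F in check. E2f1 transcripts were not called and overlapped, with 10769, 10459 and 9361 in the NF-YA RNAi libraries, against 10401, 10343 and 10066 in the control libraries. The log2 fold change was 0.003 ± 0.095, the nearest to 0 of any member, and its 95% interval of -0.21 to 0.22 leaves out changes as large as the members' median of 0.46 (edgeR adjusted p = 0.989). Dp had 9542, 12273 and 12496 in the NF-YA RNAi libraries, against 7904, 8371 and 8624 in the control libraries and was called higher (0.46 ± 0.12, edgeR adjusted p = 0.0332), a call that held in 1 of the 6 fits that left out 1 library, namely when NF-YA RNAi library 2 was dropped. Rbf was called as well, with 7537, 7382 and 6891 in the NF-YA RNAi libraries, against 5498, 5391 and 5395 in the control libraries, the smallest fold change among the called members but also the smallest SE (0.42 ± 0.093, edgeR adjusted p = 0.0189), and its call was lost without NF-YA RNAi library 4 or control library 2. E2f2 had 848, 846 and 993 in the NF-YA RNAi libraries, against 658, 654 and 681 in the control libraries, without overlap and without a call (0.42 ± 0.17, edgeR adjusted p = 0.124).

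Levels per length showed how unequal the members of one complex were, in TPM, a level scaled to transcript length and library size, given as mean ± SD over 3 libraries per group. The most abundant member was geminin, with 171 ± 15.5 TPM in NF-YA RNAi and 118 ± 9.8 TPM in control, while dup had 5.27 ± 0.65 TPM in NF-YA RNAi and 3.5 ± 0.803 TPM in control. In the MCM ring, whose subunits stand in equal numbers in the protein complex, Mcm6 was the highest with 24.4 ± 2 TPM in NF-YA RNAi and 16.8 ± 1.54 TPM in control, and Mcm5 the lowest with 9.47 ± 1.88 TPM in NF-YA RNAi and 5.05 ± 0.842 TPM in control. The ratio of the highest to the lowest ring subunit was 2.57 in NF-YA RNAi and 3.34 in control. Between them dpa had 18.8 ± 2.86 TPM in NF-YA RNAi and 10.1 ± 0.674 TPM in control, Mcm3 14.2 ± 0.745 TPM in NF-YA RNAi and 10.6 ± 2.09 TPM in control, Mcm7 12.4 ± 2.12 TPM in NF-YA RNAi and 7.62 ± 1.32 TPM in control and Mcm2 12.2 ± 1.77 TPM in NF-YA RNAi and 6.8 ± 0.75 TPM in control. The NF-YA RNAi mean of dpa was above that of Mcm3, whereas in control their levels differed by less than the spread of Mcm3, and the other 4 subunits kept the same order in both groups. Mcm7 and Mcm2 differed by less than the SD of either gene in NF-YA RNAi, and by less than the SD of Mcm7 but more than that of Mcm2 in control. Summed over the 6 subunits the ring had 82.4 to 99.8 TPM in NF-YA RNAi and 49.15 to 62.45 TPM in control.

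**Figure D3:**
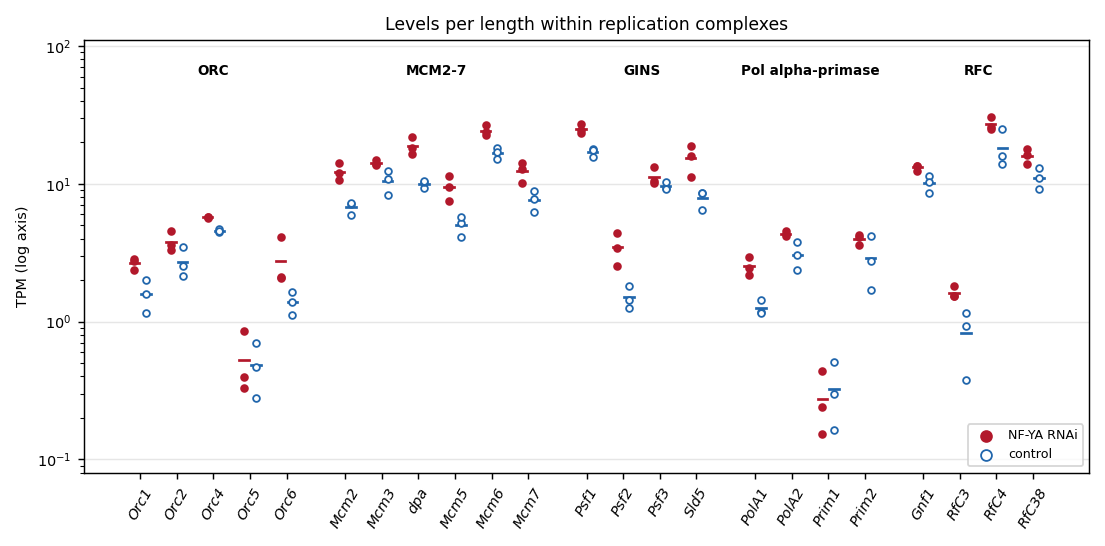
TPM of the subunits of 5 replication complexes (log axis), with filled red points for the 3 NF-YA RNAi libraries, open blue points for the 3 control libraries and bars for the means. The ring subunits lie within a narrow band, whereas Prim1, Orc5, Psf2 and RfC3 lie far below the other subunits of their complexes in both groups.

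Other complexes were less even. Among the GINS subunits, Psf1 had 25.2 ± 2.01 TPM in NF-YA RNAi and 17.1 ± 1.29 TPM in control and Psf2 had 3.46 ± 0.942 TPM in NF-YA RNAi and 1.51 ± 0.29 TPM in control, a ratio of 7.3 in NF-YA RNAi and 11.3 in control. Orc4 exceeded Orc5 by 10.9 times in NF-YA RNAi and 9.43 times in control. RfC4 exceeded RfC3 by 16.7 times in NF-YA RNAi and 22.2 times in control, and PolA2 exceeded Prim1 by 15.8 times in NF-YA RNAi and 9.37 times in control. The low subunits rest on few counts, so these ratios are imprecise. By contrast RPA3 and RPA2 stood near each other, as did PolE2 and PolE1. Their ratios were 1.1 and 1.16 in NF-YA RNAi and 1.23 and 1.17 in control. These pairs are not whole complexes. RPA1, given beside the members, had 10.25 ± 1.09 TPM in NF-YA RNAi and 7.9 ± 2.15 TPM in control, against 94.3 ± 17.2 and 67.0 ± 11.2 TPM for RPA3. PolE4 had 10.97 ± 2.01 and 11.43 ± 1.25 TPM, against 2.29 ± 0.268 and 1.29 ± 0.137 TPM for PolE1. PolD2 exceeded PolD1 by 6.9 times in NF-YA RNAi and 7.68 times in control. The called members were the better counted ones, with a median control mean of 2874 normalised read counts, against 779 for the 27 members not called.

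The members' level also differed between the libraries of a group. The median over the 41 members of log2 CPM over the control mean was 0.36, 0.47 and 0.60 in NF-YA RNAi libraries 2, 4 and 5, against -0.13, 0.05 and 0.06 in control libraries 1, 2 and 3. NF-YA RNAi library 5 was the highest library for 25 members and control library 1 the lowest for 26. The mean log2 CPM of the 15 enterocyte markers was 4.59, 3.68 and 2.22 in NF-YA RNAi libraries 2, 4 and 5, against 6.51, 5.77 and 5.32 in control libraries 1, 2 and 3, which is the reverse order of the members over all 6 libraries. When this marker mean was added to the fit as a covariate, no member was called higher or lower by edgeR, 2 (Mcm2 and Rbf) were higher at an unadjusted p under 0.05, the members' median fell to 0.18 with 37 still above 0, and over all genes 21 were called higher and 20 lower. The marker means of the groups do not overlap, so the covariate and the group are largely confounded, and the part of enterocyte RNA in the members' result was not tested beyond this fit.

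**Figure D4:**
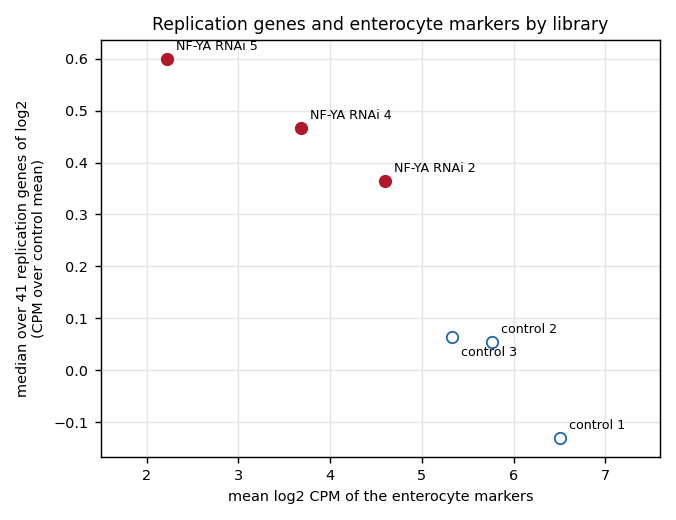
Each point is a library, placed by the mean log2 CPM of the 15 enterocyte markers (x axis) and by the median over the 41 replication genes of log2 CPM over the control mean (y axis), with filled red points for NF-YA RNAi and open blue points for control. NF-YA RNAi library 5 has the lowest marker mean (2.22) and the highest member median (0.60), and control library 1 has the highest marker mean (6.51) and the lowest member median (-0.13).

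The number of calls depended on single libraries, while the sign of the members' median did not. When 1 NF-YA RNAi library was left out, 12 members were called higher for library 2 and 5 each for libraries 4 and 5. In those fits 507, 192 and 188 of 9370, 9368 and 9457 genes were called higher. For the control libraries the member counts were 5 without library 1, 7 without library 2 and 10 without library 3. Over all genes these fits called 231 of 9389, 243 of 9377 and 486 of 9354 higher. The members' median stayed between 0.41 and 0.55 in all fits that left out 1 library, and no member was called lower. Without both control library 1 and NF-YA RNAi library 5, a setting chosen after the data were seen, 1 member, Mcm2, was called higher, the median was 0.36 and 39 members were above 0. That fit called 79 of 9297 genes higher. Over all genes, the calls of the 6-library fit were 562 higher and 728 lower, 43.6% higher. With library size as the scale in place of TMM factors 59.2% of calls were higher and with limma on log2 TPM 62.1%, and each called 16 members higher.

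**Figure D5:**
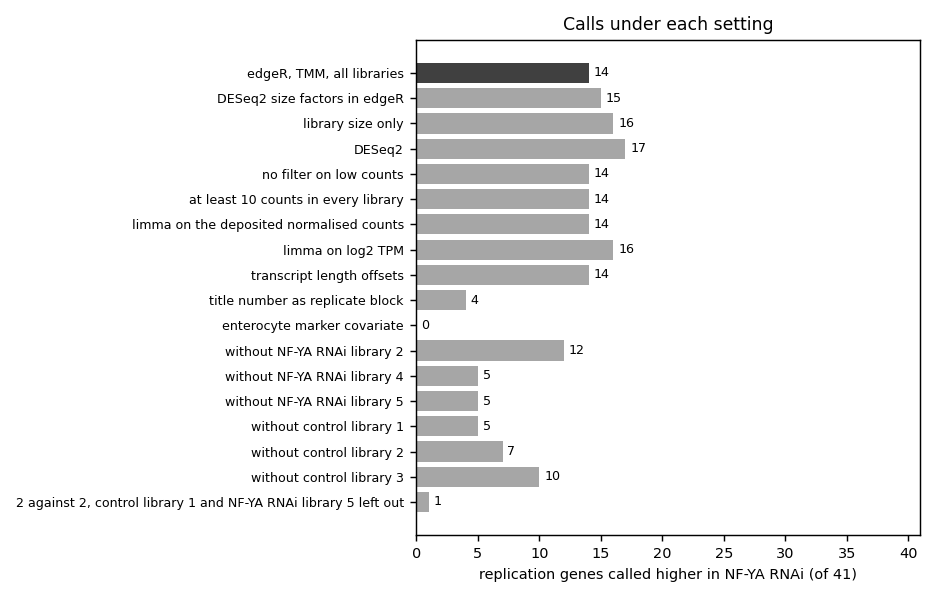
Number of the 41 replication genes called higher in NF-YA RNAi (x axis) under each setting, with the dark bar for the test over all 6 libraries. The bar stands at 14, other tools and scalings give 14 to 17, and leaving out 1 library gives 5 to 12. The replicate block gives 4, leaving out both control library 1 and NF-YA RNAi library 5 gives 1, and the enterocyte marker covariate gives 0.

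Genes that work beside the replication machinery were taken from lists of 51 names, of which 46 were matched and tested. By edgeR 7 (15.2%, against the 6.19% of all genes) were called higher and none lower, with 1 (dap) lower at an unadjusted p under 0.05, and DESeq2 called 13 higher and none lower. Only 1 was called when NF-YA RNAi library 4, NF-YA RNAi library 5 or control library 2 was left out, 2 without control library 1, 4 without control library 3, and 0 with the enterocyte covariate. The 7 were the cyclin CycE, the ubiquitin ligase subunit l(2)dtl, the mitochondrial polymerase PolG1, the loader subunit cutlet, the histone chaperone Caf1-55 and the dREAM subunits mip130 and mip40. Among 8 cell cycle kinases and regulators (CycE, Cdk2, dap, Cdc7, chif, l(2)dtl, stg and fzr), 2 were called. CycE, the cyclin that with Cdk2 starts S phase and is itself an E2F target, had 1388, 1465 and 2308 in the NF-YA RNAi libraries, against 719.9, 896 and 925 in the control libraries. All NF-YA RNAi libraries were above all control libraries, library 5 by far, and the log2 fold change was 1.04 ± 0.22 (edgeR adjusted p = 0.0145). Its kinase Cdk2 had 201, 240.0 and 458 in the NF-YA RNAi libraries, against 256, 118 and 143 in the control libraries and overlapped (0.60 ± 0.39, edgeR adjusted p = 0.354, with 0.80 for the log2 ratio of the means of these counts). The inhibitor of this pair, dap, had 1037, 1204 and 1007 in the NF-YA RNAi libraries, against 1529.8, 1459 and 1338 in the control libraries, with every NF-YA RNAi library below every control library but no call (-0.42 ± 0.15, edgeR adjusted p = 0.0869).

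l(2)dtl encodes Cdt2, which directs the degradation of Cdt1 on PCNA in S phase, and had 4286, 5149 and 5029 in the NF-YA RNAi libraries, against 4042, 3295 and 3391 in the control libraries (0.42 ± 0.12, edgeR adjusted p = 0.0484). The Cdc7 kinase that fires origins (-0.21 ± 0.21) and its partner chif (-0.15 ± 0.12) were on the other side of 0 and overlapped. Of 10 further polymerase and loader genes, 2 were called. PolG1 copies mitochondrial rather than nuclear DNA and had 3733, 3449 and 3569 in the NF-YA RNAi libraries, against 1635, 2254 and 2774 in the control libraries (0.68 ± 0.18, edgeR adjusted p = 0.0328). cutlet, related to the loader subunit Ctf18, had 1452, 1815 and 1947 in the NF-YA RNAi libraries, against 1138, 1143 and 1172 in the control libraries (0.59 ± 0.15, edgeR adjusted p = 0.0301). Both had groups apart, and each call held in 1 of 6 fits that left out a library.

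None of 15 genes listed for checkpoint and fork protection was called by edgeR (6 higher and none lower at an unadjusted p under 0.05). Their median log2 fold change was 0.28, with 12 above 0. Beside timeout, the list holds the clock gene tim, whose log2 fold change was -0.19 ± 0.10. DESeq2 called 2 of the 15 higher. These were Rif1, which delays late replication (0.40 ± 0.13, edgeR adjusted p = 0.067, DESeq2 adjusted p = 0.0459), and the checkpoint kinase grp, the fly Chk1 (0.28 ± 0.089, edgeR adjusted p = 0.0683, DESeq2 adjusted p = 0.0304), and both had groups that did not overlap. Of 7 genes for chromatin assembly and topoisomerases, all were above 0, edgeR called 1 higher, and DESeq2 called 5 higher (Caf1-55, Caf1-180, Caf1-105, asf1 and Top2). The edgeR call was Caf1-55, a subunit of the CAF-1 chaperone and of several other chromatin complexes, with 6054, 6654 and 8076 in the NF-YA RNAi libraries, against 4002, 5173 and 4989 in the control libraries (0.55 ± 0.14, edgeR adjusted p = 0.0328). In the list of 6 further E2F and dREAM genes, mip130 (0.41 ± 0.097, edgeR adjusted p = 0.0245) and mip40 (0.66 ± 0.16, edgeR adjusted p = 0.0245) were called, while their partner Myb, the activating subunit of the complex, had 5263, 4769 and 5504 in the NF-YA RNAi libraries, against 5419, 5333 and 4889 in the control libraries and a log2 fold change of -0.010 ± 0.10 (edgeR adjusted p = 0.964).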

How the data were processed

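Female midgut cells sorted on YFP gave 3 NF-YA RNAi and 3 control libraries. The authors trimmed, aligned to the FlyBase genome with STAR and quantified with Salmon, and deposited for each library estimated counts and TPM of 34989 transcripts. The deposited gene table holds signal values, which are counts divided by the authors' DESeq2 normalization factors, printed here as normalised read counts, and columns of the authors' own comparison, which were not used. The labels name other tools (FastQC 0.11.2, Trimmomatic 0.33, TopHat2 2.1.0) than the methods. The strand setting is not given in the sources used here.

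Estimated counts were summed to 17609 genes of BDGP6.54 (44 transcripts were in no gene and 12 genes of the deposited table had no match), rounded, filtered with filterByExpr and tested with edgeR 4.0.16 (TMM, quasi-likelihood, Benjamini-Hochberg, adjusted p under 0.05) in R 4.3.3. The SE is the log2 fold change divided by the square root of F. Fold changes thus come from estimated counts, and ratios of the printed normalised read counts differ from them by at most 1.7% in the members. In Cdk2, a list gene, they differ by more. DESeq2 1.42.0, limma 3.58.1 (pseudocounts 0.1 for TPM and 1 for normalised read counts), other scalings and filters, a replicate block, an enterocyte covariate and leaving out each library were alternatives. The edgeR test was also run on simulated counts. No shift in cell mixture was simulated, so that run does not bear on the enterocyte difference between the groups. An exact permutation test of 3 against 3 libraries cannot go below p = 0.1 and was not used. The study describes independent samples, and p-values measure the spread between these libraries. No pair of libraries agreed within sampling noise.

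The members and lists were chosen with earlier results of these data known. Named with values were all called members, members below 0, PCNA, the highest and lowest of each step, and called genes of the lists (10 at most). Others that are named, such as E2f1, Mcm3, dup, dap or Myb, were picked for their roles after values were seen.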

Additional observations from a re-analysis of the deposited data

How the results depend on the processing

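No called member changed direction under any alternative run. The replicate block, which used the numbers in the sample titles (shared numbers 1 and 2), gave 4 members called higher, dpa, Mcm2, Mcm5 and RPA2 (the paired deviations correlated at 0.05 and -0.02, so the numbers were not taken to pair the samples), 271 genes higher over all genes and 2 list genes. With the enterocyte covariate there were 0 members, 0 list genes, 21 genes higher and 20 lower over all genes, and a member median of 0.182. Without control library 1 and NF-YA RNAi library 5, chosen after seeing the data, 1 member (Mcm2), 0 list genes, 79 genes higher and 145 lower were called. limma on log2 TPM called 444 genes lower, and DESeq2 called 13 list genes higher. Leaving out 1 library gave 5 to 12 members higher, 188 to 507 genes higher, 314 to 736 lower and 1 to 6 list genes higher, with a member median of 0.41 to 0.551. In each of these settings no member was called lower. The cause of these shifts was not tested, beyond the fewer samples in fits that leave out a library. In the replicate block, control library 3 and NF-YA RNAi library 5 shared their title number with no other library, so they did not inform the group difference. The promoter comparison that had been planned was not run. Depth limits Prim1, Orc5, Mcm10, Psf2, RfC3 and Orc6, whose lowest libraries hold 28 to 126 estimated counts.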

Other observations

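Of the members, with Orc3 and RPA1 beside them, 5 pairs of genes lie within 50000 bases of each other. Log2 fold changes (± SE) were 0.82 ± 0.13 for dpa and 0.67 ± 0.21 for Orc1, 22291 bases apart, and 0.61 ± 0.69 for Mcm10 and 0.42 ± 0.17 for E2f2, 23183 bases apart. Dp (0.46 ± 0.12) and Orc3 (0.15 ± 0.35) lie 15885 bases apart, and Mcm2 (0.77 ± 0.14) and RPA1 (0.30 ± 0.18) lie head to head with 518 bases between them. The 95% intervals of Mcm2 (0.46 to 1.07) and RPA1 (-0.10 to 0.70) overlap. PolA1 (0.93 ± 0.17, 95% interval 0.55 to 1.31) and E2f1 (0.003 ± 0.095, 95% interval -0.21 to 0.22) lie 5690 bases apart. Differences between neighbours were not tested.

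Psf2 has a pair of annotated transcripts of 831 and 811 bases. Salmon gave 100% of its TPM to the longer one in all 3 NF-YA RNAi libraries, against 0%, 0% and 53.8% in control libraries 1, 2 and 3. At 99 to 386 estimated counts per library the split is uncertain, and the fold change of the gene rests on the sum over both transcripts. E2f1, which was not called, was dominated by 1 transcript of 3150 bases, with 63.7% to 81.0% of its TPM in NF-YA RNAi and 71.0% to 85.0% in control, ranges that overlap.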
